A study of Homo sapiens with 179 samples.

Results

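The genes described here encode the proteins of the mitochondrial ribosome, the particle that translates the few messages of the mitochondrial genome. Members were chosen by symbol alone, as every gene whose name is MRPL or MRPS followed by a number and at most 1 further letter, and 76 of the 19084 genes in the tables met that rule. Of these, 49 encode proteins of the large subunit and 26 proteins of the small subunit. The large-subunit count includes MRPS30 and MRPS18A, which were named for the small subunit and later placed in the large one. MRPS36 belongs to neither, since its product was later assigned to the oxoglutarate dehydrogenase complex.

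All libraries came from the established human embryonic stem cell line H1, kept in E8 medium on Matrigel, with no treatment or genetic change stated. Poly(A) RNA from these cells was sequenced after either of 2 library protocols, and each gene has RSEM expected counts and a TPM value, a level scaled to the library total and divided by transcript length. LM-Seq, a low-cost strand-specific protocol with random-hexamer priming, gave Lane 1 (n = 95 libraries), Lane 2 (n = 48), Lane 3 (n = 24) and Lane 4 (n = 6), which differ in how many libraries shared a lane. The TruSeq v2 kit gave the groups H1p43 and H1p16 (n = 3 each). The sources used here do not say what the letter p marks or what distinguishes one LM-Seq library from another. Nor do they tie replicates to separate cultures, so every p-value measures spread between libraries that may be only technical.

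Mitochondrial ribosomes make a small set of very hydrophobic subunits of the respiratory chain and of ATP synthase, while all of their own proteins are encoded in the nucleus, translated in the cytosol and imported. Some of these proteins descend from the bacterial ribosome and others are found only in mitochondrial ribosomes. Human embryonic stem cells rely strongly on glycolysis, and their mitochondria are commonly described as immature. Transcription factors of the ETS family (GABP, also called NRF2), YY1 and NRF1 are known to act on many nuclear genes for mitochondrial proteins.

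Lane 1 libraries totalled 1040671 to 1539277 expected counts, with 2005736 to 2739084 for Lane 2, 4028607 to 4918577 for Lane 3 and 15780078 to 16583048 for Lane 4. TruSeq libraries totalled 29018106 to 35852646 expected counts for H1p43 and 23680503 to 30628645 for H1p16. All 10 pluripotency markers were present in every group, with the lowest mean of any of them 76.8 TPM in H1p43. Of the markers of other cell types, 2 of 7 for neuroectoderm (PAX6 and SOX1), 5 of 6 for mesendoderm (all but KDR), 4 of 5 for endoderm (all but AFP) and 3 of 8 for fibroblasts or stroma (COL3A1, LUM and DCN) averaged under 1 TPM in every group. The rest were expressed: over all libraries the summed level was 280 to 488 TPM for the neuroectoderm list, 41.8 to 106.1 TPM for the mesendoderm list, 0 to 9.56 TPM for the endoderm list and 420 to 821 TPM for the fibroblast list, whose THY1 is also carried by human pluripotent stem cells. In bulk RNA, fewer cells of a type and less RNA per cell cannot be told apart.

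Promoter windows were searched for short sequence elements, which the rule did not use. No other gene family was counted separately, so the shares are set only against all genes and tested genes. Of the 76 members, 67 had an entry in a RefSeq promoter table (GRCh38.p14), which holds 250 bases before and 50 bases after each annotated start. Letters were searched on both strands, and the shares that follow count promoters with at least 1 match. CCGGAAG, a core of ETS family sites, was in 28 member windows (41.8%), against 14.2% of 13631 windows of all genes in the tables and 17.4% of 10687 windows of genes tested in H1p43 against H1p16. AAGATGGCG, a YY1 element, was in 13 member windows (19.4%), against 2.9% of all windows and 3.63% of tested genes. TATAAA went the other way, with 2 member windows (2.99%) against 9.45% of all windows and 5.76% of tested genes. The long NRF1 palindrome was in 1 member window (1.49%) against 1.72% of all windows and 2.08% of tested genes, and its shorter core GCATGCGC, added after the long form had been counted, was in 6 (8.96%) against 4.31% and 5.02%.

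Positions of the matches were read in the member windows only, so they are not set against those in other genes. The first base of the ETS core lay at a median of -22 from the start, and 26 of its 37 matches lay within 50 bases of it. The YY1 element lay at a median of 9.5 bases after the start, with 10 of 14 matches downstream of it. Either set of letters was in 37 of the 67 windows and both were in 4 (MRPL38, MRPL52, MRPS10 and MRPS18A), with no overlap between matches. A match is a run of letters and not a measured binding site.

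Windows of 4 members are printed 5′ to 3′ on the gene's strand, from 250 bases before the start to 30 bases after it, with the matched letters in capitals. MRPL1 is shown as the member with the largest difference between H1p43 and H1p16, and it held none of the searched letters. MRPL46 is shown for a YY1 element just after the start, MRPS18A for an ETS core followed by a YY1 element, and MRPL52, a member that was higher in H1p43, for a pair of YY1 elements, an NRF1 core and an ETS core read on the other strand (CTTCCGG). These windows were picked after their values had been seen. They lie, on GRCh38.p14, at chr4:77862580-77862859 (plus strand), chr15:88467359-88467638 (minus strand), chr6:43687762-43688041 (minus strand) and chr14:22829637-22829916 (plus strand), in the order in which the lines follow.
MRPL1: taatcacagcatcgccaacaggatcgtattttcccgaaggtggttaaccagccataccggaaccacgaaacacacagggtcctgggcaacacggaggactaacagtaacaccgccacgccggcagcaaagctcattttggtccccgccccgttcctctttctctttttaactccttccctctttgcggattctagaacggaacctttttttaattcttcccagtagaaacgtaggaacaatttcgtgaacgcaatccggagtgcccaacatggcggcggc
MRPL46: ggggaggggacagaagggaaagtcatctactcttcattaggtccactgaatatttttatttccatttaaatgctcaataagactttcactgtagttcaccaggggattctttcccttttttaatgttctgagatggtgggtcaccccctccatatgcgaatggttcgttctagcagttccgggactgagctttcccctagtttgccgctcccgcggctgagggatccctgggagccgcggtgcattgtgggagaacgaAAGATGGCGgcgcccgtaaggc
MRPS18A: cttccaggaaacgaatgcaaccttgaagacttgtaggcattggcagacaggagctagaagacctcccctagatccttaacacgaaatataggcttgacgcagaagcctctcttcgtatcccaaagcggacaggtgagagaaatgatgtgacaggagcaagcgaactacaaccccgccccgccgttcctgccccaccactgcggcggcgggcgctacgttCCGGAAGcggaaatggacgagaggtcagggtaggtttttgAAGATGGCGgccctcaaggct
MRPL52: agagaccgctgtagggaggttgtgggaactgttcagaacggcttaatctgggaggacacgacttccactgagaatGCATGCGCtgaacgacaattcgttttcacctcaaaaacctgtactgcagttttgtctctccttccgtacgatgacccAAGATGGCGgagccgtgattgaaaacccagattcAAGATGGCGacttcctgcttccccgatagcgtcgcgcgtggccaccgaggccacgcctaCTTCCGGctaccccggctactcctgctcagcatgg

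The 76 members were expressed at moderate levels in these stem cells. Member means ran from 24.0 to 393 TPM in H1p43, with a median of 87.6 TPM, and from 22.2 to 397 TPM in H1p16, with a median of 95.9 TPM. MRPL51, a protein found only in mitochondrial ribosomes, was highest, with 387, 392 and 398 TPM in H1p43 and 386, 398 and 408 TPM in H1p16. MRPS34, MRPS21, MRPL3 and MRPL20 followed it in H1p16, at means of 343, 318, 271 and 252 TPM. At the low end MRPL22, whose bacterial counterpart lines the exit tunnel, had 23.6, 24.1 and 24.4 TPM in H1p43 and 22.4, 20.8 and 23.4 TPM in H1p16. MRPS25, MRPL19, MRPS14 and MRPS36 came next in H1p16, at means of 22.6, 24.9, 25.5 and 30.3 TPM. Every member was above 0 in every TruSeq library. The highest member mean was 16.4 times the lowest in H1p43 and 17.9 times in H1p16.

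**Figure D1:**
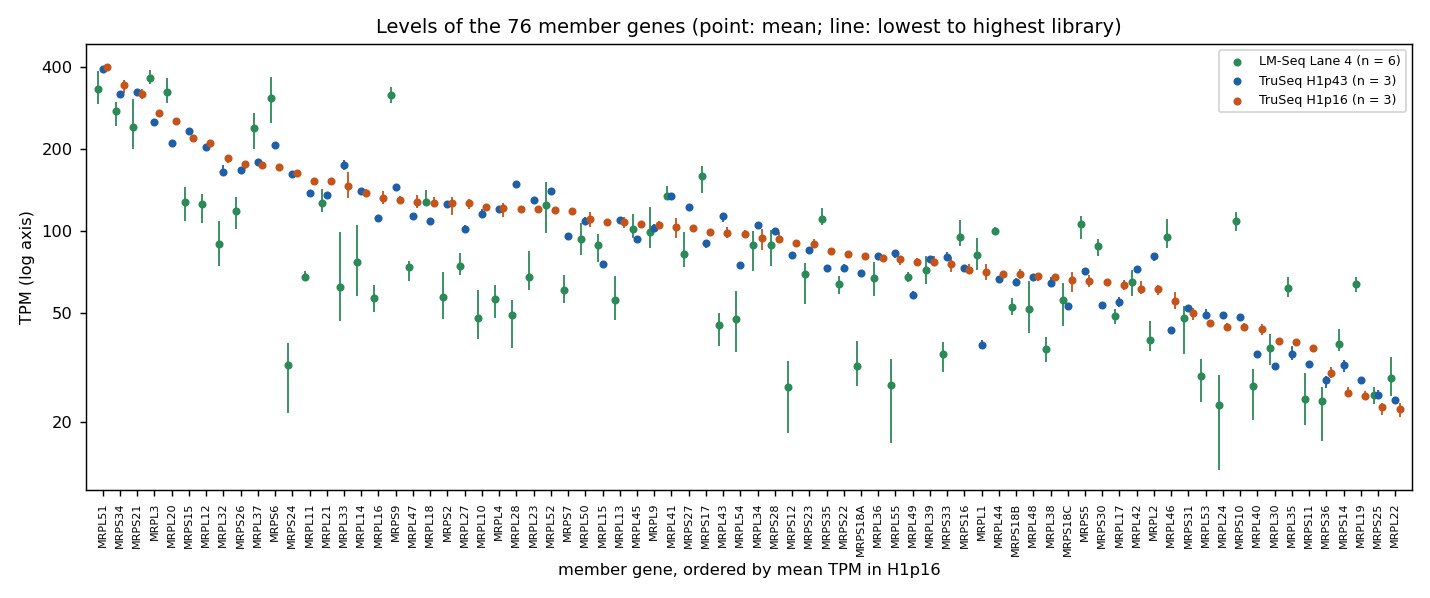
Mean TPM of each of the 76 members (points, log axis) with the range over libraries (lines) in LM-Seq Lane 4 (n = 6), TruSeq H1p43 and TruSeq H1p16 (n = 3 each), ordered by the level in H1p16. The H1p43 and H1p16 points follow the same slope from about 397 TPM for MRPL51 to about 22.2 TPM for MRPL22, while the Lane 4 points scatter widely around it.

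Summed over members, the family took 0.813 ± 0.002% of all TPM in H1p43 and 0.833 ± 0.007% in H1p16 (SD, n = 3 each). The libraries of H1p43 lay between 0.811% and 0.815% and those of H1p16 between 0.825% and 0.838%, so the groups did not overlap. In these sums of TPM the difference lay in the large subunit, at 0.516 ± 0.001% in H1p43 and 0.537 ± 0.005% in H1p16. The small subunit took 0.293 ± 0.002% in H1p43 and 0.293 ± 0.003% in H1p16. A sum weights the highest members most, and the calls on counts given below tilted lower in both subunits. The order of the members was nearly the same in both groups, with a Spearman correlation of 0.96 over the 76 genes, which are not independent replicates.

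The first comparison set H1p43 against H1p16 within the TruSeq protocol. Most members were slightly lower in H1p43: 48 of the 76 fell and 10 rose by edgeR's quasi-likelihood test at an adjusted p below 0.05, and the median log2 fold change was -0.14. All 76 passed the filter on low counts. Over all 14574 genes tested, 35.4% were called lower and 36.4% higher, with a median of 0.01. Calls were thus common in this comparison, and the members' calls were uneven between directions where those of all genes were not. On counts, that tilt was not particular to the members. Of 84 cytosolic ribosomal protein genes tested, 49 fell and 6 rose, with a median of -0.07. Of 80 respiratory chain subunit genes, 38 fell and 12 rose, with a median of -0.06. In summed TPM, however, both of these families were higher in H1p43, while the members were lower. The cytosolic family took 22.7 ± 0.1% of TPM in H1p43 and 21.97 ± 0.3% in H1p16. The respiratory chain subunits took 2.35 ± 0.004% in H1p43 and 2.26 ± 0.03% in H1p16. How the families differed from each other was not tested. The members' own changes were small. MRPL1 was the only member with a change of 2-fold or more, and 22 of the 76 members moved by under 0.1 on the log2 scale.

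The balance of these calls depended on the scale. On TPM values, tested with limma on log2(TPM + 1), 32 members were lower and 22 higher, against 26.3% lower and 47.1% higher among all 13029 genes tested, and the median was -0.03 for the members and 0.09 for all genes. The 32 lower and 10 of the 22 higher members were called in the same direction by edgeR on counts, and no member was called in opposite directions. Read without a test, TPM in the 3 H1p43 libraries lay wholly below that in the 3 H1p16 libraries for 30 members and wholly above it for 22, which is 68.4% of the members against 73.7% of all genes. With a minimum change of 1.2-fold in edgeR's glmTreat, 15 members were lower and 0 higher, against 15.8% and 20.7% of all genes; at an unadjusted p below 0.05 that test gave 17 members, and DESeq2 without the minimum gave 46 lower and 8 higher.

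**Figure D2:**
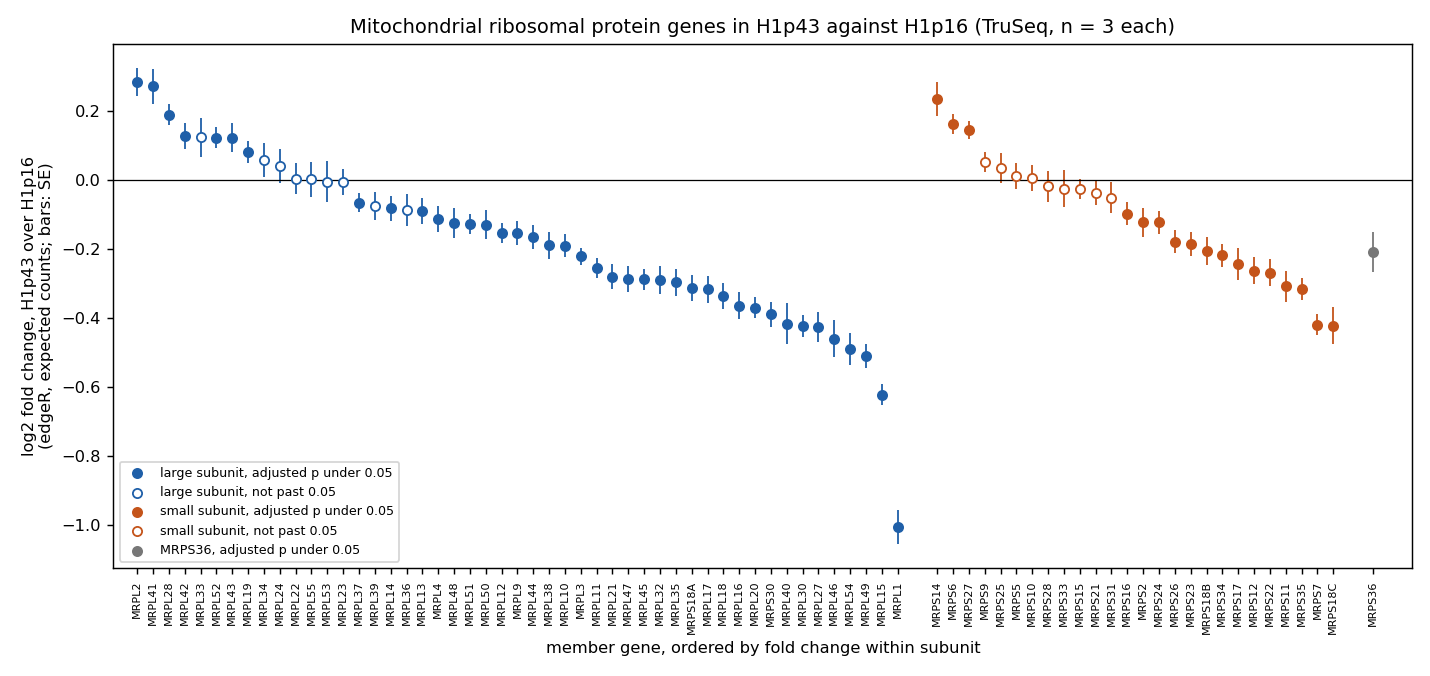
The log2 fold change of each member, H1p43 over H1p16 (vertical axis, bars are SE, n = 3 libraries each), ordered within the large subunit, the small subunit and MRPS36. Filled points passed an adjusted p of 0.05, and MRPL1 stands below all others at -1.01.

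On counts, both subunits held more falls than rises, where 35.4% of all genes were called lower and 36.4% higher. In the large subunit 33 of 49 members fell and 7 rose, with a median of -0.15, and in the small subunit 14 of 26 fell and 3 rose, with a median of -0.11. Members with a bacterial counterpart (28 of 45 lower, 5 higher) and the other members (20 of 31 lower, 5 higher) were alike in these counts. The difference between subunits or between these classes was not tested.

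MRPL1, whose bacterial counterpart forms the stalk beside the site where spent tRNA leaves, changed most. It had 37.5, 37.04 and 39.8 TPM in H1p43, against 66.2, 70.8 and 75.7 TPM in H1p16. Every H1p43 library was below every H1p16 library by a wide margin, and the log2 fold change was -1.01 ± 0.05 (SE; edgeR, adjusted p = 6.8e-12). Leaving out any 1 library gave values from -1.06 to -0.96.

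MRPL15, a large-subunit protein conserved from bacteria, came second. Its levels were 74.4, 76.6 and 76.5 TPM in H1p43, against 107.4, 107.5 and 109.5 TPM in H1p16. Both groups were tight and far apart, and the log2 fold change was -0.62 ± 0.03 (edgeR, adjusted p = 4.4e-12). MRPL49, MRPL54 and MRPL46, all without a bacterial counterpart, followed with log2 fold changes of -0.51 ± 0.03, -0.49 ± 0.05 and -0.46 ± 0.05. MRPL54 had 75.8, 76.6 and 72.9 TPM in H1p43, against 98.6, 93.97 and 100.6 TPM in H1p16. MRPL46 had 43.1, 43.99 and 43.3 TPM in H1p43, against 51.9, 54.3 and 59.6 TPM in H1p16. For MRPL49, MRPL54 and MRPL46 alike, the groups did not overlap.

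The remaining members among the 10 largest falls lay close together, between -0.43 and -0.42 on the log2 scale. They were MRPL27, which in bacteria reaches toward the catalytic centre, MRPL30, MRPL40, the small-subunit head protein MRPS7, and MRPS18C, 1 of 3 human proteins related to bacterial S18. MRPS7 illustrates them, with 96.5, 94.9 and 95.7 TPM in H1p43 and 117.7, 117.5 and 120.7 TPM in H1p16. The paralogs MRPS18A and MRPS18B were at -0.31 and -0.21.

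The rises were smaller than the falls. MRPL2, whose bacterial counterpart lies beside the catalytic centre, had 82.3, 82.1 and 77.8 TPM in H1p43, against 62.3, 63.3 and 58.4 TPM in H1p16, and rose by 0.28 ± 0.04 (edgeR, adjusted p = 7.6e-06). MRPL41, a protein of the large subunit found in mitochondria only, had 135.1, 137.2 and 130.6 TPM in H1p43, against 111.7, 104.1 and 94.04 TPM in H1p16, and rose by 0.27 ± 0.05 (adjusted p = 1.2e-04). Both genes had separate groups. MRPS14, MRPL28 and MRPS6, small, large and small-subunit proteins conserved from bacteria, rose by 0.24, 0.19 and 0.16. MRPS27, a pentatricopeptide-repeat protein of the small subunit, rose by 0.15, and MRPL42, MRPL52, MRPL43 and MRPL19 rose by between 0.08 and 0.13. None of these 10 passed the 1.2-fold minimum.

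Promoter letters were spread over the directions of change. The ETS core was in 45.2% of the 42 windows of members that fell, in 33.3% of the 9 windows of members that rose and in 37.5% of the 16 windows of members that were not called. The YY1 element was in 8 windows of members that fell, 2 of members that rose and 3 of members not called. The largest fall, MRPL1, held neither, while MRPL54 held the ETS core and MRPL46 the YY1 element. MRPL15, the second largest fall, and MRPL2, the largest rise, had no window and were not searched.

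Other genes of mitochondrial gene expression were also called in this comparison, where 35.4% of all genes were called lower and 36.4% higher. Of 7 mitoribosome proteins with symbols outside the rule, 5 fell and 1 rose: MRP63 fell by 0.28, ICT1, a peptidyl-tRNA hydrolase built into the large subunit, fell by 0.23, and CHCHD1 rose by 0.12. Of 24 assembly factors 16 fell and 4 rose, with the RNA helicase DDX28 at -0.69 and the GTPase MTG1 at -0.56. Of 15 genes for mitochondrial transcription and DNA maintenance 12 fell and 2 rose. TFAM, which packages mitochondrial DNA, averaged 83.9 ± 1.2 TPM in H1p43 and 119.1 ± 5.3 TPM in H1p16 (log2 fold change -0.62 ± 0.03, adjusted p = 2.6e-11), whereas the polymerase subunits POLG and POLG2 rose by 0.37 and 0.45.

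Translation factors were divided, with 6 of 14 higher and 7 lower, against 36.4% and 35.4% of all genes. MTFMT, which formylates the initiator tRNA, rose by 0.49, while the release factor MTRF1L was at -0.48. Among 11 regulators, 8 fell and 1 rose. PPRC1, a coactivator related to PGC-1, averaged 50.6 ± 1.9 TPM in H1p43 and 74.5 ± 2.6 TPM in H1p16 (-0.67 ± 0.03), MYCN averaged 98.8 ± 0.5 TPM in H1p43 and 147.2 ± 8.0 TPM in H1p16 (-0.68 ± 0.03), and NRF1 and YY1 were at -0.38 and -0.25. GABPA, the DNA-binding subunit of GABP, had 23.4 ± 0.7 TPM in H1p43 and 22.5 ± 0.6 TPM in H1p16 and was not called (adjusted p = 0.18). The level of the pluripotency markers moved with the group as well: their summed level was 7418 to 7455 TPM in H1p43 and 8930 to 9214 TPM in H1p16, with 9 of 10 lower and none at 0. That of 7 neuroectoderm markers was 352 to 357 TPM in H1p43 and 280 to 297 TPM in H1p16, with 5 of the 6 tested higher and 1 lower. The mesendoderm marker KDR averaged 40.7 ± 0.3 TPM in H1p43 and 74.2 ± 1.8 TPM in H1p16 (-0.98), and the endoderm marker AFP 2.55 ± 0.37 TPM in H1p43 and 5.04 ± 0.46 TPM in H1p16 (-1.10). The 8 fibroblast or stroma markers summed to 792 to 821 TPM in H1p43 and 768 to 807 TPM in H1p16, with 3 of the 5 tested higher and 2 lower. The part of these marker shifts in the members' falls was not tested.

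The second comparison set LM-Seq Lane 4, the deepest LM-Seq lane, against the 6 TruSeq libraries of both groups, and so asked how the protocols measured these genes. Protocol, input RNA and run were not separated by the design, so they cannot be told apart here. The members differed far more than between the TruSeq groups: 42 of 76 fell in Lane 4 and 19 rose, with 13 falls and 3 rises of 2-fold or more, and log2 fold changes ran from -2.30 to 1.30. Among all 13827 genes tested, 36.9% were called lower and 34.3% higher. The median was -0.24 for the members and -0.06 for all genes. With the 1.2-fold minimum, 31 members were lower and 17 higher, against 30.3% and 27.5% of all genes.

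Cell type markers differed between the protocols too, in a comparison where 34.3% of all genes were called higher and 36.9% lower. The 10 pluripotency markers summed to 11912 to 12764 TPM in Lane 4, against 7418 to 7455 TPM in H1p43 and 8930 to 9214 TPM in H1p16, with 7 higher and 2 lower. The 7 neuroectoderm markers summed to 380 to 403 TPM in Lane 4, against 352 to 357 TPM in H1p43 and 280 to 297 TPM in H1p16, with 1 of the 6 tested higher and 3 lower. The 8 fibroblast or stroma markers summed to 473 to 528 TPM in Lane 4, against 792 to 821 TPM in H1p43 and 768 to 807 TPM in H1p16, with 2 of the 5 tested higher and 3 lower. KDR was at 0.59 and AFP at -1.05, both called. The part of these shifts in the members' differences was not tested.

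Lane 4 lay outside both TruSeq groups for most members. Its mean TPM was below both the H1p43 and the H1p16 mean in 48 members, above both in 20 and between them in 8. TPM of the 6 Lane 4 libraries lay wholly below that of the 6 TruSeq libraries for 38 members and wholly above it for 17, which is 72.4% of the members against 53.9% of all genes. Set against H1p43 alone, 33 members were lower and 23 higher in Lane 4 (37.8% and 35.5% of all genes), and against H1p16 alone 46 were lower and 18 higher (33.4% and 33.4% of all genes). The family took 0.713 ± 0.016% of TPM in Lane 4 (SD, n = 6), below all TruSeq libraries, with 0.438% for the large and 0.272% for the small subunit.

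The order of members by level was partly lost between protocols. The Spearman correlation of member means over the 76 genes was 0.59 between Lane 4 and H1p43 and 0.61 between Lane 4 and H1p16, against 0.96 between H1p43 and H1p16. In Lane 4 the highest member was MRPL3 (362 TPM), not MRPL51, and the lowest was MRPL24 (23.1 TPM), not MRPL22.

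MRPS24, a small-subunit protein conserved from bacteria, fell most. It had 33.6, 38.97, 21.6, 35.99, 26.8 and 36.1 TPM in the Lane 4 libraries, against 159.3, 163.99 and 162.1 TPM in H1p43 and 166.8, 160.7 and 162.6 TPM in H1p16. Even the highest Lane 4 library was far below the lowest TruSeq library, and the log2 fold change was -2.30 ± 0.12 (SE; edgeR, adjusted p = 5.4e-11). MRPS24 shares its locus with the read-through gene model URGCP-MRPS24, between which reads may be divided, and with the counts of that model added, a check chosen after seeing the data, the log2 fold change was -2.09.

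MRPS12, whose bacterial counterpart sits at the decoding centre, came next. It had 18.2 to 33.4 TPM over the 6 Lane 4 libraries (median 28.1), against 83.02, 78.8 and 82.6 TPM in H1p43 and 88.3, 91.7 and 91.7 TPM in H1p16. No library overlapped, and the log2 fold change was -1.60 ± 0.12 (adjusted p = 9.4e-09). The other members among the 10 largest falls were MRPL55 (-1.51), MRPL28 (-1.41), the stalk-base protein MRPL10 (-1.28), MRPL33 (-1.25), MRPS18A (-1.21), MRPL43 (-1.14), MRPS33 (-1.11) and MRPS2 (-1.10). MRPL28 had 37.2 to 55.8 TPM in Lane 4, against 147.4 to 149.8 TPM in H1p43 and 119.6 to 121.2 TPM in H1p16.

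MRPL19, conserved from bacteria and the member with the longest transcript measured here, rose most. It had 59.9 to 67.9 TPM over the 6 Lane 4 libraries (median 64.6), against 28.2, 28.9 and 28.4 TPM in H1p43 and 24.5, 24.4 and 25.9 TPM in H1p16. The groups were far apart, with a log2 fold change of 1.30 ± 0.05 (edgeR, adjusted p = 1.2e-12). MRPS10 and MRPS9, both small-subunit proteins conserved from bacteria, rose by 1.26 ± 0.05 and 1.24 ± 0.05. MRPS9 had 294 to 338 TPM in Lane 4, against 143.5, 144.5 and 147.8 TPM in H1p43 and 128.1, 127.3 and 134.1 TPM in H1p16. Further rises were in MRPL46 (0.98), MRPL35 (0.87), MRPS17 (0.79), MRPS6 (0.73), MRPS5 (0.67), MRPS30 (0.61) and MRPL1 (0.61).

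For some members the result turned on which TruSeq group Lane 4 was set against. MRPL1 had 71.8 to 94.1 TPM in Lane 4, against 37.04 to 39.8 TPM in H1p43 and 66.2 to 75.7 TPM in H1p16, so that it overlapped H1p16 and not H1p43. Its log2 fold change was 1.2 ± 0.08 against H1p43 alone (edgeR, adjusted p = 2.0e-10) and 0.18 ± 0.08 against H1p16 alone (adjusted p = 0.058). MRPL15, not called against both groups together, was 0.33 ± 0.07 higher against H1p43 alone and -0.31 ± 0.07 against H1p16 alone (adjusted p = 2.2e-04 and 2.9e-04). Both comparisons use the same 6 Lane 4 libraries, and their values are only set side by side.

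**Figure D3:**
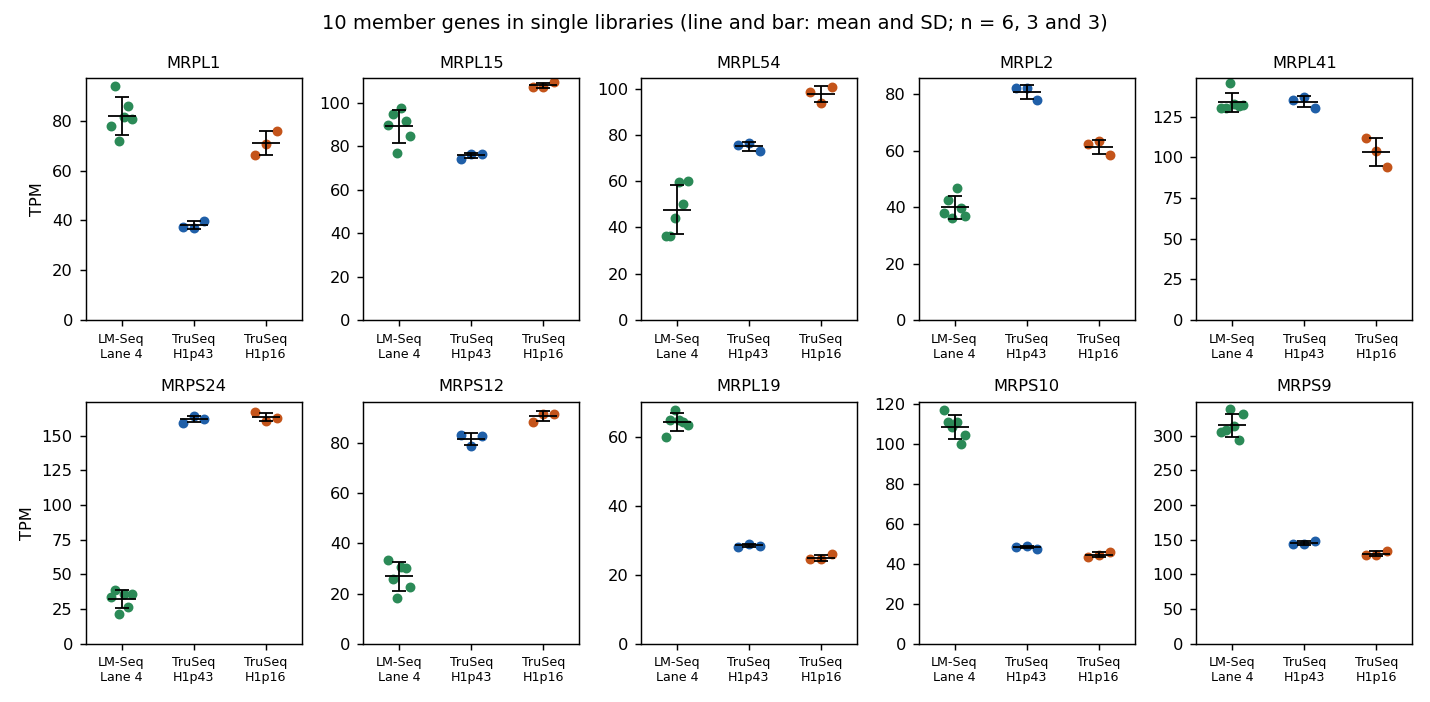
TPM of 10 members in each library of LM-Seq Lane 4 (n = 6), TruSeq H1p43 and TruSeq H1p16 (n = 3 each), with mean and SD. MRPL1 and MRPL15 separate H1p43 from H1p16, MRPS24 and MRPS12 are low in Lane 4, and MRPL19, MRPS10 and MRPS9 are high there.

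Transcript length moved with the protocol difference. Effective length was taken as the ratio of expected count to TPM, scaled so that 1 is the mean of the library, and the members are short: their median was 0.55, their range 0.21 (MRPL33) to 3.81 (MRPL19), and 64 of 76 were below 1. Across all tested genes split by length into tertiles (3 groups of equal size), the median log2 fold change of Lane 4 over TruSeq was -0.42 in the shortest, -0.05 in the middle and 0.21 in the longest tertile. The 67 members in the shortest tertile had a median of -0.29, with 59.7% lower and 22.4% higher, against 51.7% lower and 22.2% higher among the 4609 genes of that tertile. The log2 fold change had a Pearson correlation with log2 length of 0.42 over the 76 members and 0.30 over all genes, given as a description, because genes of a library share its fragmentation and depth. Length did not move with H1p43 against H1p16 in this way, with a correlation of -0.01 over the members.

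**Figure D4:**
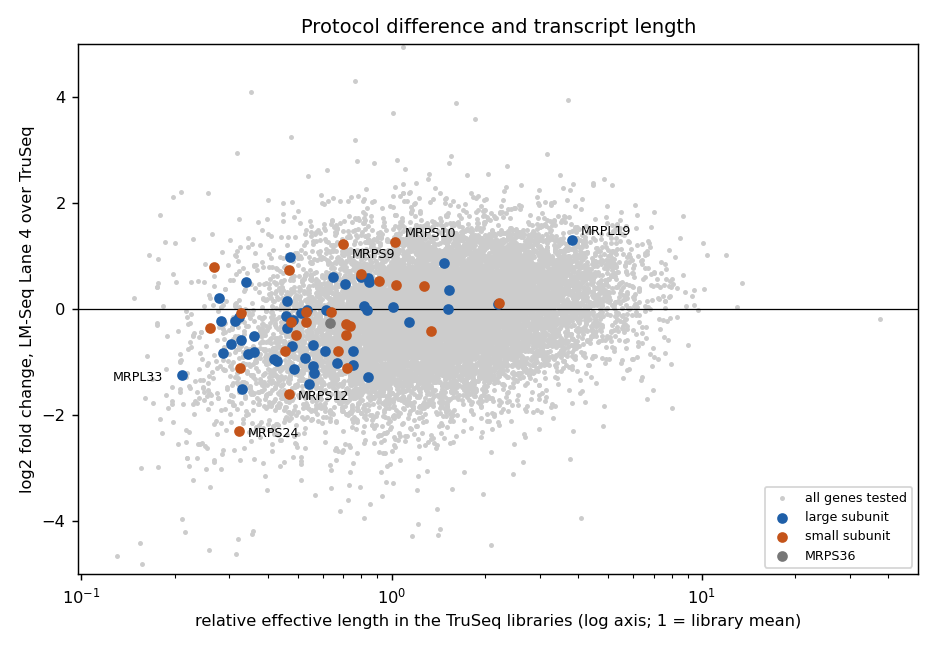
The log2 fold change of LM-Seq Lane 4 over TruSeq (vertical axis) against relative effective length (log axis) for members of the large subunit, the small subunit, MRPS36 and all genes tested (grey, with 8 genes outside the vertical range). Members sit mostly left of 1, where the grey cloud lies lower, and range from MRPS24 at -2.30 to MRPL19 at 1.30.

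Other families with many short transcripts had lower medians in Lane 4, a difference between families that was not tested. Of 83 cytosolic ribosomal protein genes tested, 72 fell and 8 rose, with a median of -1.0, and of 80 respiratory chain subunit genes 55 fell and 13 rose, with a median of -0.66. Among all genes tested, 36.9% were called lower and 34.3% higher. In the shortest tertile their medians were -1.02 and -0.71, against -0.29 for the members. The cytosolic family took 11.7 ± 0.2% of TPM in Lane 4, against 22.7 ± 0.1% in H1p43 and 21.97 ± 0.3% in H1p16. The mitochondrial family's own shares, 0.713% in Lane 4, 0.813% in H1p43 and 0.833% in H1p16, lay much closer together.

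Genes that work with the mitochondrial ribosome were divided in Lane 4, where 34.3% of all genes were called higher and 36.9% lower. Of 14 translation factors 6 rose and 3 fell, with MTIF2, an initiation factor, at 1.08 and OXA1L, which inserts new proteins into the inner membrane, at -1.24. Of 24 assembly factors 10 rose and 11 fell, 5 and 3 of them by 2-fold or more, with a median of 0.001. MTERFD1 was lowest in that list, at 15.2 ± 4.5 TPM in Lane 4 (n = 6) and 42.7 ± 6.8 TPM in TruSeq (n = 6), a log2 fold change of -1.45 ± 0.16 (adjusted p = 4.9e-07). MTERFD2, a partner of the methyltransferase NSUN4, had 130 ± 7.0 TPM in Lane 4 (n = 6) and 30.4 ± 2.7 TPM in TruSeq (n = 6), a log2 fold change of 2.13 ± 0.08 (edgeR, adjusted p = 3.1e-12). Of 15 genes for mitochondrial transcription and DNA maintenance 10 rose and 3 fell, with TFAM at 1.36 ± 0.12. Of 7 mitoribosome proteins outside the rule 1 rose and 4 fell, with GADD45GIP1 at 0.53 and CHCHD1 at -1.04. Of 11 regulators 5 rose and 2 fell.

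The third set of comparisons asked whether sharing a lane among more libraries changed the measured levels. Each of Lanes 2, 3 and 4 was set against Lane 1, restricted to shared library numbers (48, 24 and 6 of them). No member was called in any of them by edgeR, by DESeq2 or with the library number as a block. At an unadjusted p below 0.05, edgeR gave 0, 2 and 2 of the 76 members for Lanes 2, 3 and 4 (MRPL10 and MRPL34 for Lane 3, MRPL34 and MRPL39 for Lane 4), and DESeq2 gave 0, 0 and 2. The calls over all genes were also rare, at 0%, 0% and 0.0161% of the genes tested, and at 0.257%, 0.405% and 0.105% with the block.

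The sizes of these differences were small. Member log2 fold changes lay between -0.11 and 0.12 for Lane 2, between -0.14 and 0.23 for Lane 3 and between -0.27 and 0.44 for Lane 4, where only 6 numbers entered. The family took 0.717 ± 0.019% of TPM in Lane 1, 0.723 ± 0.018% in Lane 2, 0.718 ± 0.012% in Lane 3 and 0.713 ± 0.016% in Lane 4. The members kept their order, with a Spearman correlation of 0.996 between Lane 4 and Lane 1 means over the 76 genes. With Lane 1, 2 or 3 in place of Lane 4, the comparison with TruSeq gave 47, 43 and 42 members lower and 19 higher each time, against 42.9%, 42.4% and 41.4% of all genes lower and 39.9%, 38.7% and 37.6% higher.

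The spread of the median member between libraries was smaller in lanes shared by fewer libraries, which were also deeper. For the 6 library numbers sequenced in every lane, members had a median SD of 0.232, 0.190, 0.157 and 0.138 on the log2(TPM + 1) scale in Lanes 1 to 4. The median member had an average of 45.5, 87.8, 167.3 and 557 expected counts there. An SD below 0.2 was reached by 34, 43, 50 and 58 of the 76 members. Not every member followed the median: MRPL55 had SDs of 0.52, 0.69, 0.77 and 0.39 in Lanes 1 to 4. The SD holds differences between the 6 library numbers as well as counting noise. Each number of libraries per lane was used in 1 lane, and the cause of the smaller spread was not tested.

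**Figure D5:**
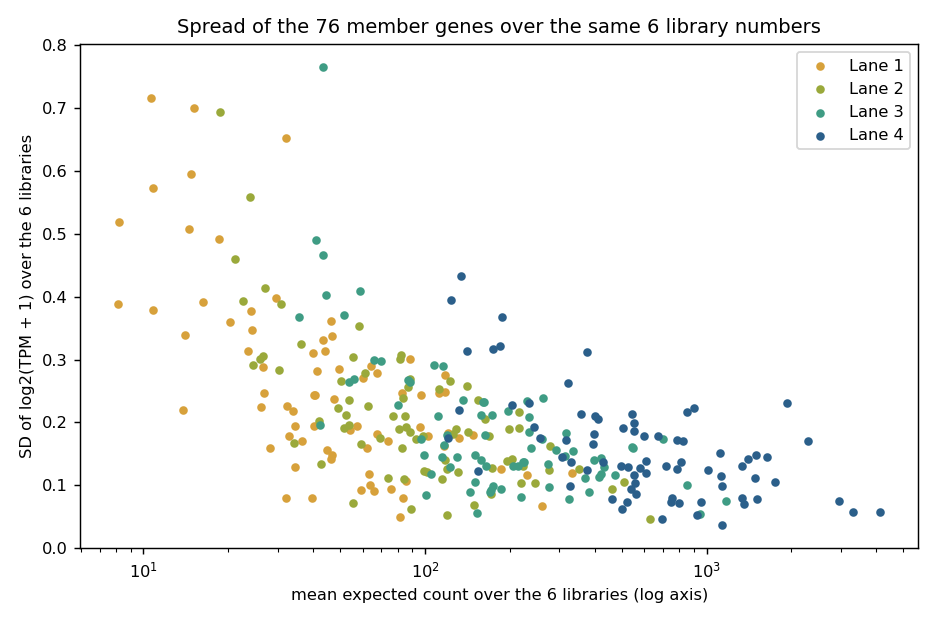
SD of log2(TPM + 1) over the same 6 library numbers (vertical axis) against mean expected count (log axis) for the 76 members in Lanes 1 to 4. The points move right and down from Lane 1, with a median SD of 0.232, to Lane 4, with a median SD of 0.138.

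Within Lane 1 most members varied more than the median gene of like level. The SD of log2(TPM + 1) over its 95 libraries was 0.25 for the median member, and 65 of the 76 were above the median SD of all genes in the same range of TPM; in Lane 4 these were 56 of 76. Their short transcripts give fewer counts at a given TPM, and the part of that in the spread was not tested. The steadiest members in Lane 1 were MRPL3, with an SD of 0.11 at an average of 332 counts, and MRPL19, with an SD of 0.12 at 248 counts.

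The 5 least steady members in Lane 1 all averaged under 15 counts. MRPS24 ranged from 0 to 84.6 TPM (median 34.04) over the 95 libraries and was listed at 0 in 3 of them, with an SD of 1.09 on the log2(TPM + 1) scale. MRPL53, MRPL55, MRPL24 and MRPS36 had SDs of 0.65, 0.62, 0.58 and 0.51, against 0.25 for the median gene of that level. The SD of MRPS24 on log2(CPM + 1) was also taken over all libraries of each lane (n = 95, 48, 24 and 6). In Lanes 1 to 4 it was 0.81, 0.57, 0.37 and 0.29 alone and 0.44, 0.40, 0.32 and 0.19 for its counts summed with those of the read-through model. In H1p43 it was 0.022 alone and 0.044 summed, and in H1p16 it was 0.022 alone and 0.019 summed. Over the 6 library numbers sequenced in every lane, the SD of MRPS24 on log2(TPM + 1) did not fall steadily. It was 0.39, 0.56, 0.49 and 0.31 in Lanes 1 to 4. The part of read division in the spread was not tested. All 5 had a smaller SD on log2(TPM + 1) over the 6 libraries of Lane 4 than over the 95 of Lane 1. In Lane 4 MRPS24 ranged from 21.6 to 38.97 TPM and MRPL53 from 23.7 to 34.02 TPM. MRPL24 and MRPL55 remained unsteady, with the largest SDs of all members in Lane 4, at 0.43 and 0.39. The median gene of that level had an SD of 0.13 there.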

How the data were processed

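RNA-seq was measured in 179 libraries. Per the submitters' processing notes, the tools were RSEM 1.2.3, Bowtie 0.12.8 and CASAVA 1.8.2, on hg19. The authors deposited RSEM expected counts per gene and TPM values for 19084 genes. RSEM divides reads between near-identical or overlapping gene models, and no label or header states a strand setting for the counting.

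Rounded expected counts of all genes were tested with edgeR 4.0.16 in R 4.3.3 (filterByExpr, TMM, quasi-likelihood test, Benjamini-Hochberg adjusted p below 0.05). Standard errors came from the log2 fold change and its F statistic. Alternatives were no filter, RLE size factors, DESeq2 1.42.0, limma 3.58.1 on log2(TPM + 1) or log2(TPM + 0.1) for genes averaging at least 1 TPM or without that filter, a minimum fold of 1.2, counts thinned to a common total, other lanes, omission of single libraries and a replicate block. The procedure was tested on simulated counts. Effective length was expected count over TPM, scaled by the library total. Promoter letters were searched in RefSeq windows with Python 3.11.15.

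The members and the other gene lists were chosen with earlier results of these data known. Full values go to the 10 called members with the largest rise and the 10 with the largest fall in each of the 2 main comparisons (at least 5 TPM in the higher group), the 5 highest and 5 lowest members in H1p16, the 5 with the largest SD in Lane 1, and up to 4 called genes per other list.

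The 5-digit library number in the LM-Seq titles pairs libraries across lanes. Same-numbered libraries deviated together from their lane means, with correlations of 0.17 to 0.642 for Lane 2 with Lane 1, 0.228 to 0.562 for Lane 3 and 0.358 to 0.429 for Lane 4. Their counts differed by little more than counting noise, with chi-square over degrees of freedom at 1.04 to 1.20, so lane comparisons may rest on resequenced libraries and not on new preparations. Within groups that value was at least 1.29, and no 2 libraries of a group were merged. It was 1.29 to 1.38 for H1p43, 1.91 to 4.08 for H1p16 and 5.79 to 10.3 for Lane 4. These libraries differ in depth from the same-numbered pairs, so the value cannot show whether libraries of a group are separate preparations.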

Additional observations from a re-analysis of the deposited data

Results flagged for a closer look

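In the 6 Lane 4 libraries, 8 of 77 series checked (the 76 members and their summed share) had 1 library farther from the rest than Dixon's test allows at 95%, and chance flags about 1 in 20. Library Lane4_38874 was high for MRPL33, with 99 TPM and the next library at 60.2 TPM, and for MRPL23, with 84.6 TPM and the next at 69.6 TPM, and it was low for MRPL47, with 65.5 TPM and the next at 74.6 TPM. Library Lane4_38870 was low for MRPS31 (35.5 TPM, the next at 48.1 TPM) and for MRPS36 (17.01 TPM, the next at 24.1 TPM). Library Lane4_38873 was low for MRPS23, with 54.01 TPM and the next at 69.5 TPM. Library Lane4_38871 was high for MRPL41 (145.9 TPM, the next at 132.6 TPM), and without it the rise of MRPL41 in Lane 4 over TruSeq was no longer past the threshold, at a log2 fold change of 0.17 (edgeR, adjusted p = 0.0725). Library Lane4_38869 was high for MRPL18, with 140.8 TPM and the next at 129.2 TPM.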

How the results depend on the processing

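For H1p43 against H1p16 (10 members higher and 48 lower), limma gave 22 higher on log2(TPM + 1), 22 higher and 31 lower on log2(TPM + 0.1), and 19 higher and 29 lower on log2(TPM + 1) without a filter; a minimum fold of 1.2 gave 0 higher and 15 lower. On all 3 TPM settings 4 members called lower on counts turned positive without passing the test: MRPL13 (0.0244, 0.0246 with the smaller pseudocount), MRPL14 (0.0244 and 0.0246), MRPL37 (0.0434 and 0.0436) and MRPS16 (0.0152 and 0.0154). The median of all genes tested was 0.01 on counts and 0.09 on log2(TPM + 1), over different sets of genes, and the cause of the reversals was not tested. Leaving out 1 library at a time gave 8 to 11 higher and 43 to 49 lower, and 47 of the 58 calls were kept each time. With the replicate number as a block, 11 were higher and 48 lower; same-numbered libraries of these groups correlated at only 0.012 to 0.041 in their deviations, although each of the 3 correlated best with its own number, so the numbers were not taken as pairs. For Lane 4 against TruSeq, leaving out 1 Lane 4 library gave 18 to 19 higher and 40 to 43 lower, and 58 of 61 calls were kept each time. With the library number as a block, Lanes 2, 3 and 4 against Lane 1 gave 0 members in either direction. DESeq2, RLE size factors and omission of the filter kept the counts of called members in both main comparisons within 1.5 times. At an unadjusted p below 0.05, Lane 3 against Lane 1 gave 2 members by edgeR, 1 with RLE size factors and 0 with DESeq2. Depth limits Lane 1 most, where the least covered members averaged 8.27 counts per library.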
